A study of Mus musculus with 8 samples.

Results

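The genes described here build the non-collagen part of the extracellular matrix. They are 43 genes listed by symbol, out of 48440 entries in a count table of mouse cardiomyocyte RNA, and all 43 were found in it. The genes were chosen by function, with no limit on counts, but the sex and litter differences of these same 8 libraries were known when the list was made. The sex and litter contrasts below are therefore descriptions of the list, and no count of its genes is independent support for a direction.

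The libraries came from cardiomyocytes purified from C57BL6/J mice at postnatal day 2. A male and a female heart were taken per litter from 4 litters, which makes 4 libraries per sex and 2 per litter. No treatment and no genetic alteration is named for any group, and every litter is of the same strain and age. The labels do not describe how the cardiomyocytes were purified, and each library stands for 1 heart.

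Library totals ran from 14226342 to 24910243 counts, of which 0.165 to 0.214% fell on the 43 genes. The lowest total was that of the litter 3 female, and the next lowest, of the litter 4 male, was 18849002. Values are given as CPM, a count scaled to its library total after TMM adjustment. A list of 15 cardiomyocyte markers summed to between 88700 and 117000 CPM per library. The 14 endothelial markers summed to between 26.1 and 212 CPM, with none at 0. The 14 fibroblast markers that are not matrix genes summed to between 229 and 276 CPM, with Dpep1 at 0 in 3 libraries and Scara5 at 0 in 1, but Gsn (148 to 202 CPM) and Prrx1 (27.7 to 49.6 CPM) held most of that sum. Tcf21, a transcription factor gene that marks fibroblasts, had 0.223 to 0.915 CPM and Pdgfra 1.89 to 3.46 CPM. Epicardial markers summed to between 15.1 and 23.9 CPM, of which Tbx18 held 9.89 to 21.4 CPM. Of 10 macrophage markers, Cd163 and Fcgr1 had no counts. In bulk RNA, fewer cells of a type and less RNA per cell cannot be told apart.

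Elastic fibres have a core of cross-linked elastin on a scaffold of fibrillin microfibrils. Fibulins bring tropoelastin to that scaffold, and lysyl oxidases cross-link it. Small leucine-rich proteoglycans such as decorin and biglycan bind collagen fibrils and growth factors, while perlecan, agrin and the nidogens belong to basement membranes, which surround every cardiomyocyte. Matricellular proteins such as periostin and the thrombospondins signal to cells rather than bear load. In the heart most of the fibrillar matrix is known to be made by fibroblasts, and cardiomyocytes contribute mainly to their own basement membrane.

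Levels were compared between genes per kilobase of annotated exon. The genes most abundant on that scale were Sparc, Hspg2, Timp2, Agrn and Timp3, at 47.8 ± 6.97, 41.9 ± 5.94, 22.1 ± 3.55, 20.0 ± 3.19 and 15.6 ± 6.03 CPM per kilobase (SD, n = 8). Sparc, which encodes a calcium-binding matricellular glycoprotein, stood above 94.6% of the 13771 tested genes, and Eln above 51.8%. Ranges of neighbours in this order overlapped for every tested gene but 1 pair, the lowest Hspg2 library (32.8 CPM per kilobase) lying above the highest Timp2 library (25.9 CPM per kilobase). The lowest in the order were Fbln5 at 0.166 ± 0.164 CPM per kilobase and Timp4, which had 0, 3, 1 and 0 counts in males and 0, 11, 7 and 1 counts in females of litters 1 to 4. Timp4, a metalloproteinase inhibitor gene, was the only one of the 43 to fail the filter on low counts. The other 42 were tested, and 7 of them had a library with under 10 counts (Fbln5, Mfap4, Mfap5, Lox, Lum, Fmod and Tnc), so little counting depth stands behind their fold changes.

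**Figure D1:**
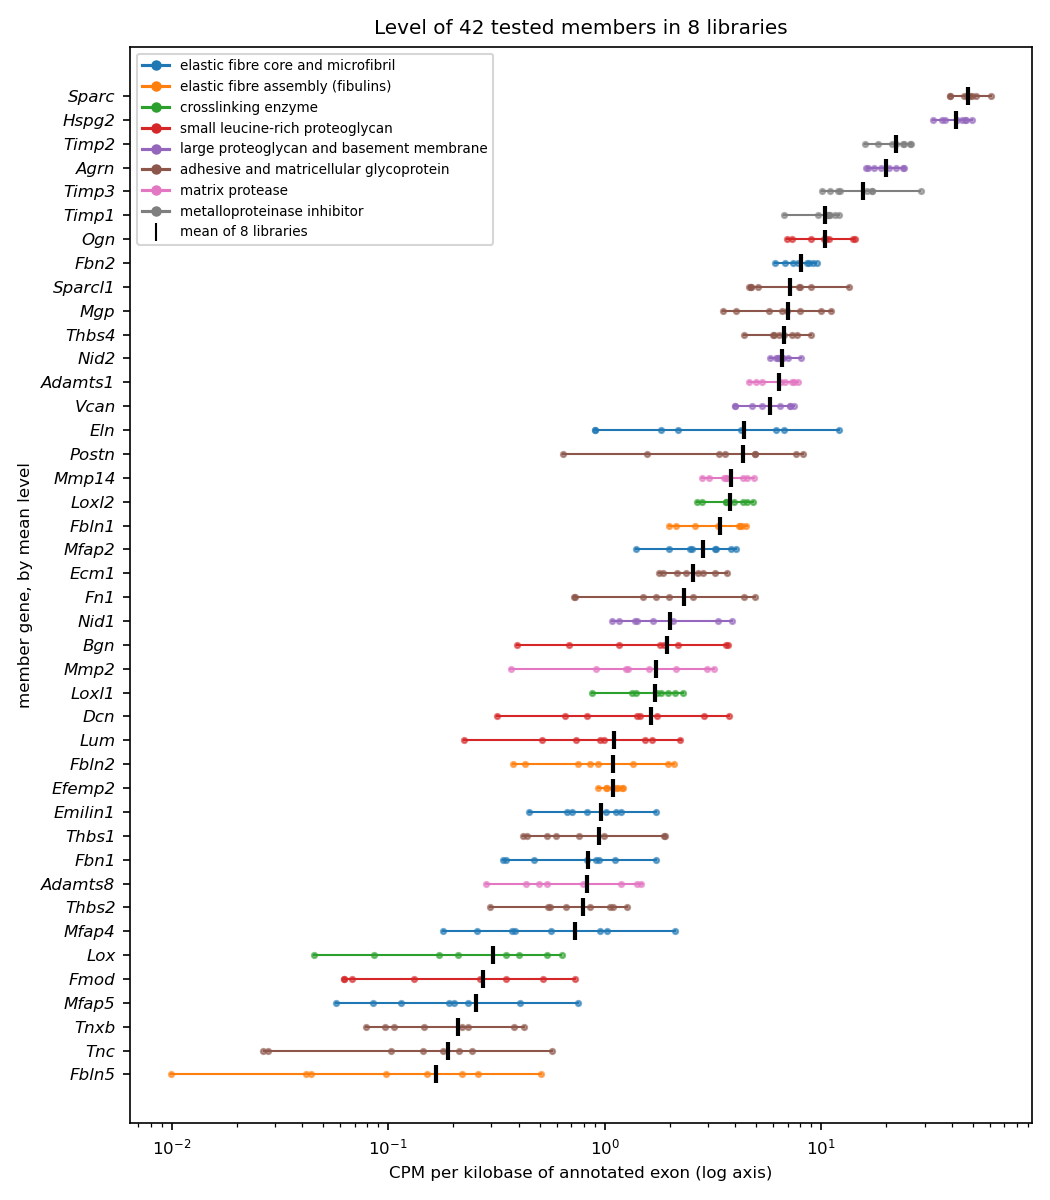
Level of each of the 42 tested genes in CPM per kilobase of annotated exon on a log axis, with 1 point per library (n = 8), a line from the lowest to the highest library and a black bar at the mean, coloured by role. Sparc and Hspg2 lie at the top with narrow ranges, while Eln, Postn and the small leucine-rich proteoglycans Bgn, Dcn, Lum and Fmod spread widely.

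The abundant basement membrane genes varied little among libraries. Hspg2, which encodes perlecan, had 607, 664, 516 and 534 CPM in males of litters 1 to 4 and 640, 712, 469 and 661 CPM in females. The values of Agrn, the agrin gene, were 150, 190, 221 and 153 CPM in males and 162, 176, 225 and 206 CPM in females. Sparc had 149, 185, 172 and 188 CPM in males and 149, 230, 197 and 179 CPM in females. In these 3 genes the highest library was 1.5 to 1.55 times the lowest, and the sexes overlapped. The inhibitor gene Timp2 had 85.9, 101, 71.4 and 100 CPM in males and 82.6, 93.5, 61.9 and 93.1 CPM in females, with litter 3 lowest in both sexes. Efemp2, the fibulin-4 gene, varied least of the 42, by a factor of 1.31, and Fbln5, the fibulin-5 gene, most, by a factor of 51.1 from 1 count in the lowest library.

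**Figure D2:**
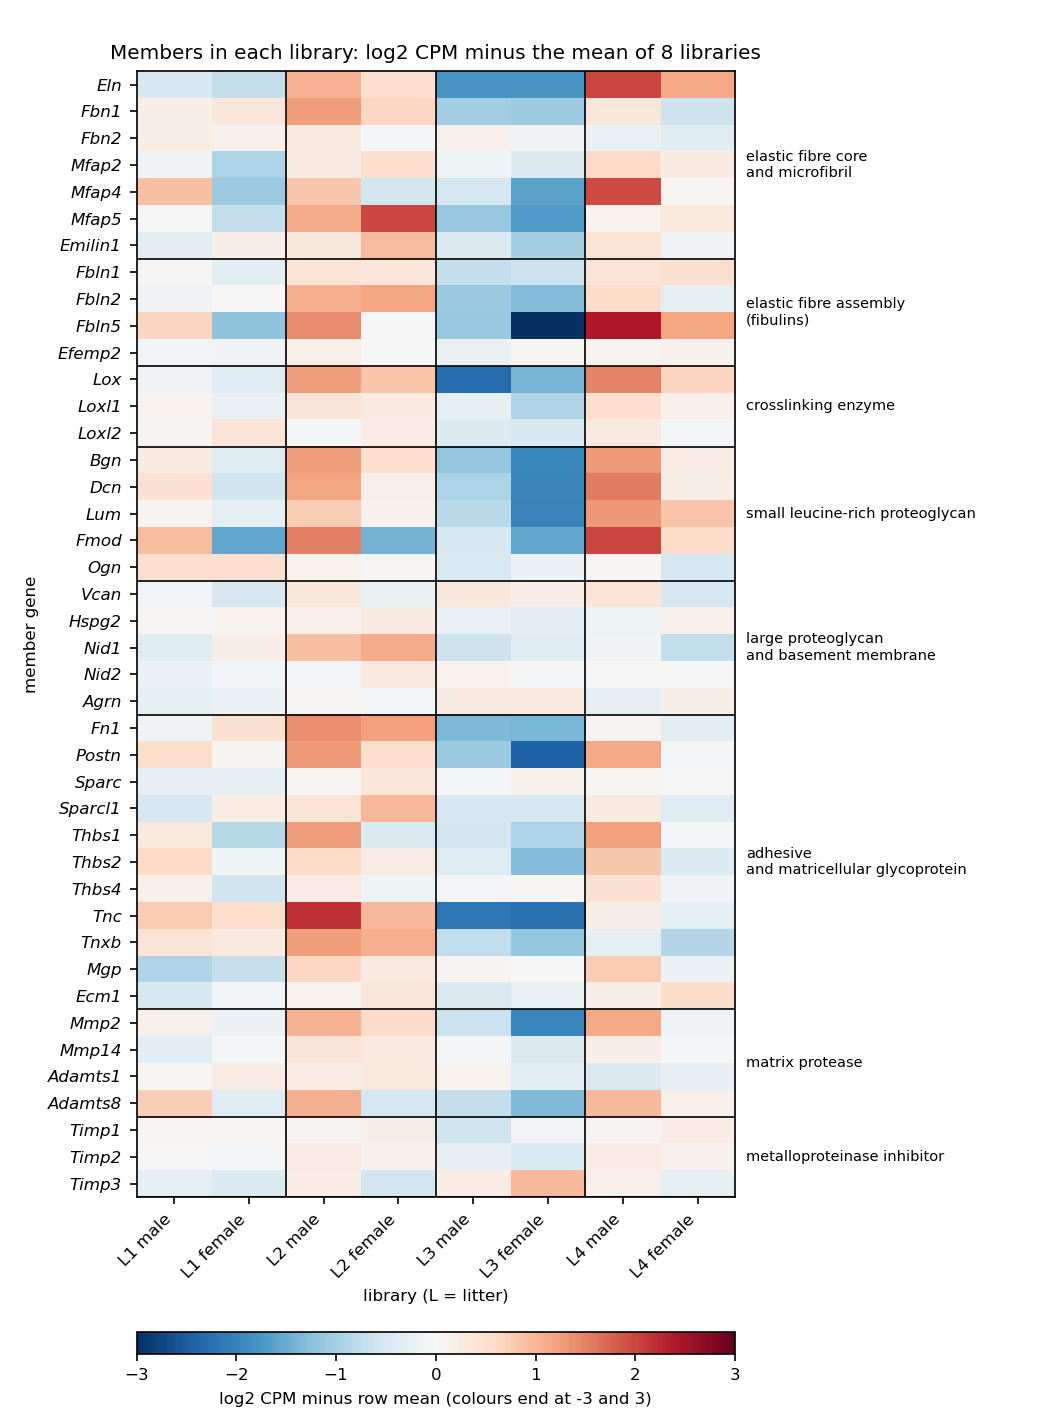
Colour gives log2 CPM, computed without a prior count, minus the gene's mean over the 8 libraries, with genes in rows by role and libraries in columns by litter. Most rows are blue in both libraries of litter 3, and Agrn, Vcan and Timp3 are exceptions that are red there.

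The first comparison asked how these genes differ among the 4 litters. In edgeR's quasi-likelihood test of litter, with sex in the model and Benjamini-Hochberg adjustment over all genes, 38 of 42 passed an adjusted p-value of 0.05, where 32.1% of all tested genes did. The 4 that did not were Efemp2, Thbs4, Nid2 and Timp1. The median log2 range over litters was 1.23 for the 42 genes and 0.37 for all tested genes. Without litter 3 there were 25 that passed, against 13.7% of all genes, and those lost included Fmod, Mfap4, Thbs2, Hspg2, Agrn, Vcan and Timp3.

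Elastin had the smallest adjusted p-value of the list in this test. Eln had 17.6, 50.2, 7.33 and 97.7 CPM in males of litters 1 to 4 and 14.8, 34.5, 7.29 and 54.5 CPM in females. Both libraries of litter 4 were above all others and both of litter 3 below all others. Its log2 range over litters was 3.37 (edgeR adjusted p = 1.41e-06), and it was 2.18 without litter 3. Against the mean of the other litters, Eln was higher by 2.12 in litter 4 (SE 0.11, adjusted p = 2.08e-06) and by 1.03 in litter 2 (SE 0.11, adjusted p = 0.000405), with both directions relative to litters that include litter 3.

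The next smallest adjusted p-values were those of Bgn (6.74e-06) and, equal to each other, Postn and Dcn (1.09e-05), the latter described with the sex comparison. Bgn, the biglycan gene, had 11.4, 22.2, 4.16 and 22.7 CPM in males of litters 1 to 4 and 7.12, 13.3, 2.41 and 11 CPM in females. Postn, the periostin gene, had 43.2, 71.7, 13.7 and 66.4 CPM in males and 31.4, 43, 5.57 and 29.2 CPM in females. For both genes the 2 libraries of litter 3 lay below the other 6. Without litter 3 the log2 range of Postn was 0.59 instead of 2.59 and that of Bgn 0.93 instead of 2.44, and both still passed (adjusted p = 0.0242 and 0.00159). The largest log2 range was that of Tnc, the tenascin-C gene, at 3.89 (adjusted p = 0.000447), but its litter 3 libraries held 5 and 3 counts. Tnc had 1.65, 4.45, 0.217 and 1.12 CPM in males of litters 1 to 4 and 1.4, 1.89, 0.206 and 0.798 CPM in females, highest in litter 2 in both sexes. Fbln5 came next with 3.72 (adjusted p = 0.000396), from 7 counts and 1 count in litter 3 to 63 and 36 counts in litter 4. Fbln5 had 1.04, 1.79, 0.304 and 3.52 CPM in males and 0.288, 0.675, 0.0688 and 1.51 CPM in females, with the male above the female in every litter. Without litter 3 the log2 ranges of Tnc and Fbln5 were 1.67 and 1.96, below the 2.18 of Eln.

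Each litter was then set against the mean of the other litters. These 4 contrasts share libraries and are not independent. In litter 3, 30 of the 42 genes were lower, where 14.8% of all tested genes were, and 3 were higher (Vcan, Agrn and Timp3), where 13.6% were. All 5 small leucine-rich proteoglycans and all 3 lysyl oxidase genes were among the lower ones. Litter 3 had the lowest mean of the 4 litters in 31 of 42 genes, against 33.4% of all genes. In 21 of 42 genes both litter 3 libraries lay below the other 6, as they did in 16.4% of all tested genes. Timp3, an inhibitor gene whose protein is bound in the matrix, had 99.4, 140, 139 and 133 CPM in males and 89.1, 82.4, 234 and 97.3 CPM in females of litters 1 to 4. The female of litter 3 stood far above the other 7 libraries, and Timp3 no longer passed the litter test when either the litter 3 or the litter 1 female was left out.

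Litters 2 and 4 held most of the other higher calls, and they were not tested against each other. In litter 2, 17 genes were higher and 0 lower, where 3.30% and 0.879% of all genes were, and in litter 4, 15 were higher and 3 lower, where 4.71% and 5.80% were. Fn1, the fibronectin gene, had 57.7 and 51.5 CPM in the male and female of litter 2, 8.55 and 8.46 CPM in litter 3, with the remaining libraries at 17.5 to 29.9 CPM, and was higher in litter 2 by 1.75 (SE 0.13, adjusted p = 0.000164). Nid1, the nidogen-1 gene, was also higher in litter 2, by 1.32 (adjusted p = 0.000525), as was Tnxb, the tenascin-X gene, by 1.56 (adjusted p = 0.00058). In litter 4 the contrasts of these 3 genes were -0.16, -0.55 and -0.77, of which only that of Tnxb passed (adjusted p = 0.0487). Eln, Fbln1, Lox, Bgn, Dcn, Postn, Timp2 and Mmp2 were higher in both litters. Fbln5, Mfap4, Lum, Fmod, Thbs1, Adamts8 and Ecm1 were higher in litter 4, by 2.25, 1.41, 1.40, 1.58, 0.81, 0.76 and 0.49. Their litter 2 values had the same sign but did not pass, at 0.83, 0.14, 0.55, 0.37, 0.64, 0.45 and 0.31, and the difference between these litters was not tested. The higher count for litter 2 fell without its female and that for litter 4 without its male, as did the shares of all genes. Each of these fits leaves 1 library in the litter. In litter 1, 2 genes were higher (Fbn2 and Ogn) and 5 lower (Eln, Vcan, Sparc, Agrn and Mgp), where 7.86% and 5.41% of all genes were. The lower count fell without the male of that litter and the higher count without its female. The shares of all genes fell likewise, again with 1 library left in the litter.

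**Figure D3:**
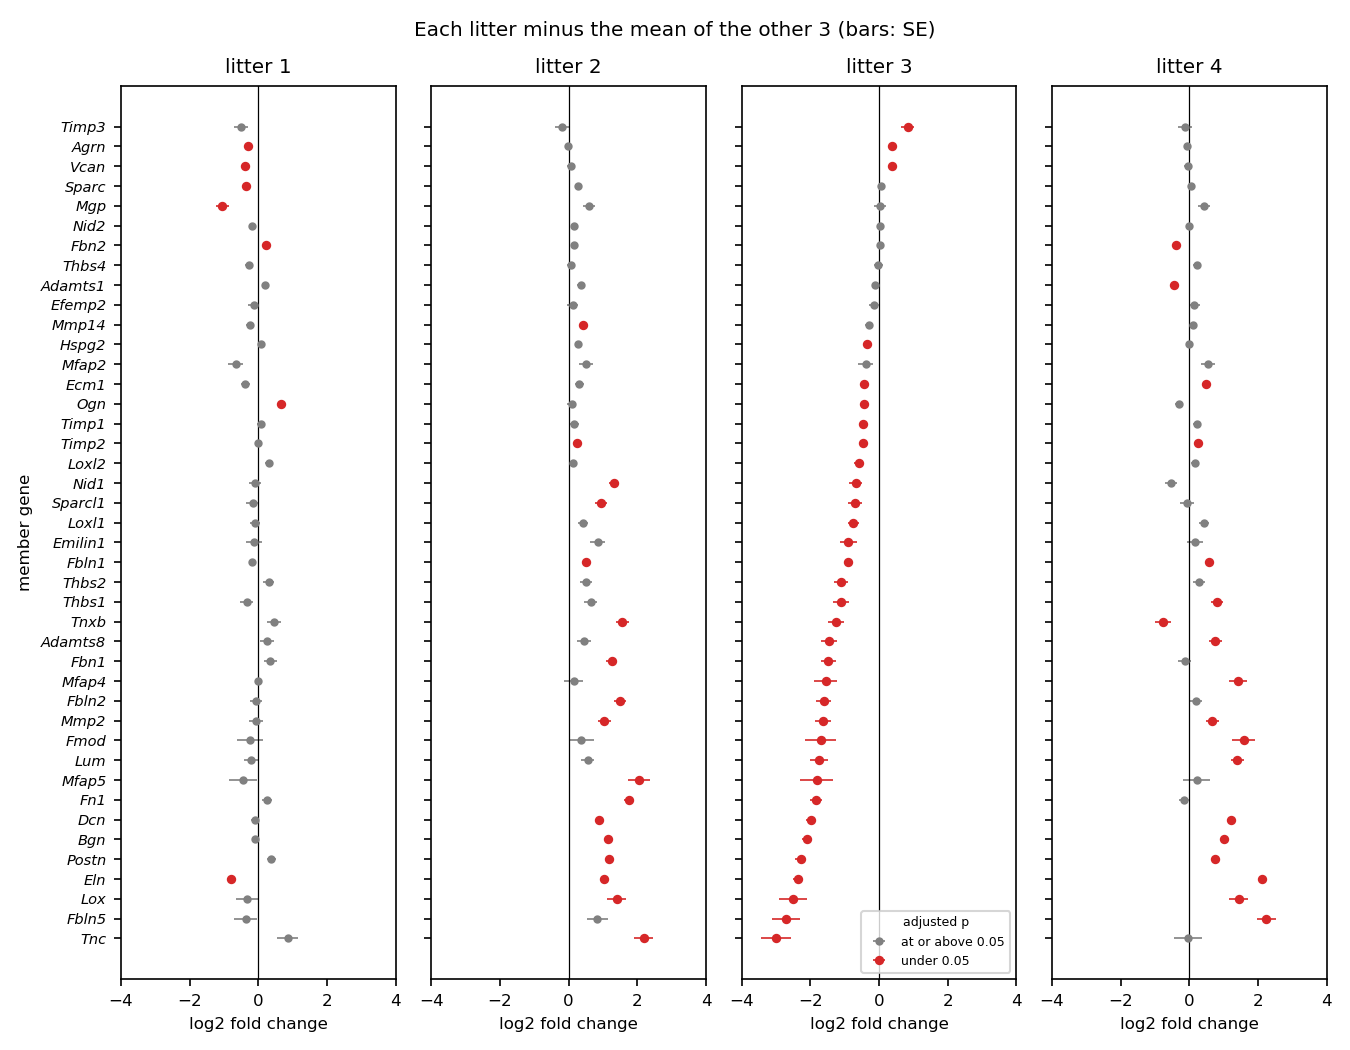
Log2 fold change of each litter against the mean of the other 3 for the 42 tested genes, ordered by litter 3, with bars of 1 SE and red for an adjusted p-value under 0.05. Red points lie mostly left of 0 in litter 3 and right of 0 in litters 2 and 4, with Eln far to the right in litter 4. Bars are left out where the change is under 0.005.

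Markers of other cells also differed among litters. The summed endothelial list was 131 and 212 CPM in the male and female of litter 2, 26.1 and 92.1 CPM in litter 1, 30.4 and 31.7 CPM in litter 3, and 51.9 and 40.7 CPM in litter 4, with 14 of 14 genes detected. The mural list, of smooth muscle and pericyte markers, summed to 858 and 838 CPM in litter 3, while the other 6 libraries held between 1280 and 1470 CPM, with Acta2 and Abcc9 as its main genes. The fibroblast list did not follow its sum, since its median log2 change in litter 3 was -0.57 over 10 tested genes while the sum stayed at 264 and 252 CPM. The cardiomyocyte list summed to 89500 and 88700 CPM in litter 3, below the other 6 libraries at 103000 CPM or more. The atrial list summed to 1430 and 1710 CPM in litter 3 and to between 286 and 946 CPM in the other libraries, mostly from Nppa at 1180 and 1510 CPM in litter 3. Of its 10 genes, 4 were called higher in litter 3 and 1 lower, against 13.6% and 14.8% of all genes. Lower calls in litter 3 were made for 9 of 14 endothelial, 9 of 15 cardiomyocyte, 5 of 8 mural and 4 of 10 fibroblast markers. In litter 2, 14 of 14 endothelial and 4 of 8 mural markers were called higher, against 3.30% of all genes. In litter 1, 6 of 15 cardiomyocyte markers were called higher and 1 lower, and 0 of 10 atrial markers higher and 4 lower. Of all genes, 7.86% were higher and 5.41% lower there. Median log2 changes in litter 4 were 0.335 for fibroblast, 0.257 for mural, 0.085 for cardiomyocyte and -0.547 for endothelial markers, against 0.013 over all genes. The erythroid list had 532 and 185 CPM in litter 3 against 98.6 to 247 CPM, and its median log2 change there was 0.94 over 6 tested genes, with Hbb-bt and Alas2 called higher. The part of these markers in the litter differences was not tested.

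The second comparison asked how the genes differ between male and female cardiomyocytes. In the edgeR test without a litter term, 0 of 42 genes passed, where 0.0436% of all genes did. DESeq2 also called 0, and 7 of 42 (Mfap4, Vcan, Fmod, Thbs1, Thbs2, Thbs4 and Adamts8) had an unadjusted p-value under 0.05, where 2.22% of all genes did. The median log2 fold change, male minus female, was 0.21 over the 42 genes, with 29 higher and 13 lower, and 0.00 over all tested genes. Leaving out the litter 2 male gave a median of 0.02, and leaving out the litter 2 female gave 0.47. In these fits litter 2 holds 1 sex only, so the sexes no longer cover the same litters. No gene had all 4 males above all 4 females, which 1.29% of all genes had.

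Once litter entered the model as a block, so that each male was read against its own litter mate, 7 of 42 genes passed and all 7 were higher in males, where 0.152% of all genes were called higher and 0.0581% lower. They were Bgn, Dcn and Fmod of the small leucine-rich proteoglycans, Postn and Thbs1 of the matricellular genes, Mfap4 of the microfibril genes and the protease gene Adamts8. In this edgeR fit no call fell on the 3 to 5 genes each of the fibulin, lysyl oxidase, large proteoglycan and inhibitor groups, too few to read against 0.211% of all genes, and DESeq2 with the block called the large proteoglycan gene Vcan. The male was above the female in all 4 litters in 18 of 42 genes, against 10.9% of all genes, and below in all 4 only in Ecm1, against 9.36%. The median log2 fold change of the 42 genes was 0.232 with the block, and 0.15 to 0.296 in the fits without 1 litter. Leaving out a litter gave 4, 5, 10 and 3 calls without litters 1 to 4, while calls over all genes went from 29 to 25, 22, 44 and 24, and Bgn, Dcn and Postn were called in each of those fits.

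Dcn, the decorin gene, had 10.2, 16.7, 3.82 and 21.8 CPM in males of litters 1 to 4 and 4.85, 8.23, 1.86 and 8.52 CPM in females. The male was higher in every litter, yet the 2 sexes overlapped because the male of litter 3 was below 3 of the females. Its log2 fold change was 1.14 with the block (SE 0.11, adjusted p = 0.000315) and 1.14 without it (SE 0.52, adjusted p = 1). Bgn, on chromosome X, was higher by 0.82 (SE 0.10, adjusted p = 0.00227) with the values given above, and Postn by 0.86 (SE 0.11, adjusted p = 0.00464). Their sexes overlapped likewise, with litter 3 lowest in both sexes.

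In the other 4 called genes the male was also above the female in every litter. Thbs1, the thrombospondin-1 gene, had 6.02, 11.5, 3.30 and 11.4 CPM in males and 2.67, 3.60, 2.55 and 4.62 CPM in females, and was higher by 1.22 (SE 0.17, adjusted p = 0.0117). Adamts8, which encodes a secreted metalloproteinase, had 5.5, 6.82, 2.00 and 6.48 CPM in males and 2.51, 2.29, 1.31 and 3.65 CPM in females, a difference of 1.09 (SE 0.17, adjusted p = 0.0285). In both genes only the male of litter 3 fell within the range of the females.

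Mfap4, which encodes a microfibril-associated glycoprotein, had 49, 44, 17 and 73 counts in males and 12, 16, 5 and 26 counts in females, a log2 difference of 1.68 (SE 0.25, adjusted p = 0.0156). Fmod, the fibromodulin gene, had 29, 41, 10 and 43 counts in males and 5, 5, 3 and 21 counts in females, a log2 difference of 1.97 (SE 0.33, adjusted p = 0.0407). Without litter 4 the log2 differences of Thbs1, Adamts8, Mfap4 and Fmod were 1.18, 1.20, 1.55 and 2.39, against 1.22, 1.09, 1.68 and 1.97 with all litters, and all 4 calls were lost. Their edgeR adjusted p-values in that fit were 0.0857, 0.0748, 0.13 and 0.0857. Without litter 2 they were 0.0745, 0.228, 0.0493 and 0.261, and without litter 1 they were 0.0324, 0.0978, 0.0864 and 0.112. With DESeq2 and the block, Fmod was at 0.0673 and the other 6 passed.

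**Figure D4:**
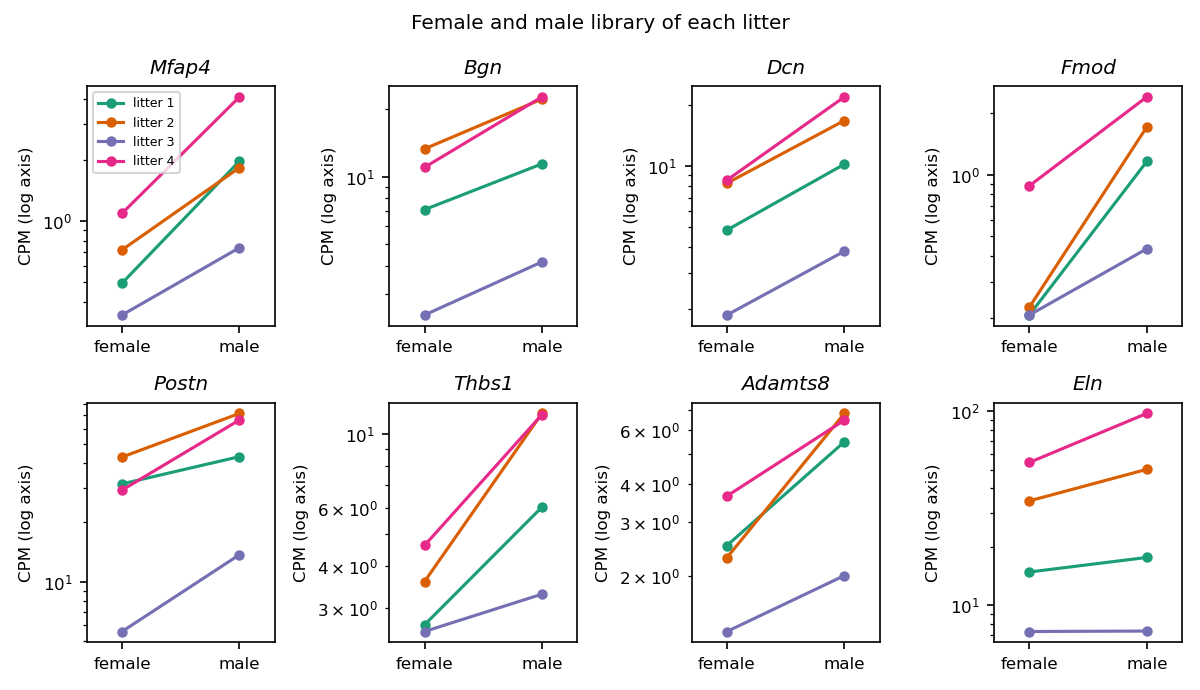
CPM on a log axis in the female and the male of each litter, joined by a line, for the 7 genes called with the litter block and for Eln. Each of the 7 rises from female to male in all 4 litters, and the litter 3 line is lowest or shares the lowest values in each panel.

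Just outside the threshold with the block were Fbln5, Vcan, Thbs2 and Eln, with log2 differences of 1.44, 0.51, 0.77 and 0.50 and adjusted p-values of 0.062, 0.0622, 0.0987 and 0.112. Vcan, the versican gene, had 77, 104, 104 and 108 CPM in males and 58.0, 69.4, 93.6 and 57.5 CPM in females. Both lumican and matrix metalloproteinase-2 genes were higher in males in all 4 litters, with log2 differences of 0.56 for Lum and 0.79 for Mmp2 (adjusted p = 0.305 and 0.147). Among genes with values near 0 were Fn1 at 0.00, Adamts1 at -0.02, Efemp2 at -0.03 and Hspg2 at -0.09. Ecm1, which encodes a secreted matrix glycoprotein, had the lowest value, -0.32 (SE 0.11, adjusted p = 0.336).

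**Figure D5:**
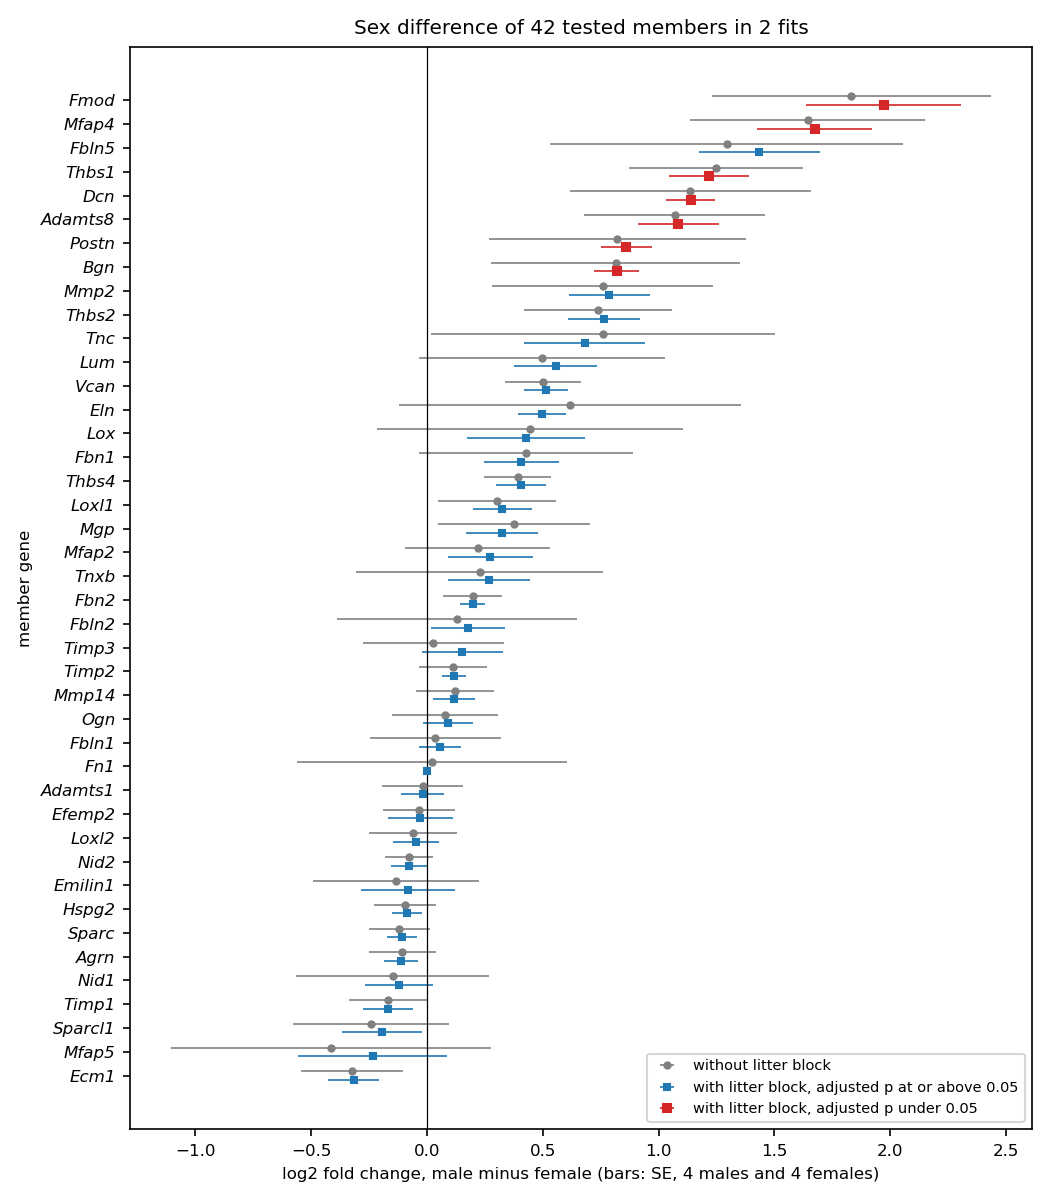
Log2 fold change, male minus female, of the 42 tested genes without the litter block (grey) and with it (blue, or red for an adjusted p-value under 0.05), with bars of 1 SE over 4 males and 4 females. Both fits give similar values with much shorter bars under the block, and the 7 red genes lie between 0.82 and 1.97.

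Sequences before the transcript start are shown for the called genes that have one in the RefSeq table of GRCm38.p6. That table held 27 of the 43 genes with 35 starts, among them Bgn, Fmod and Postn. For Postn, the start next to that of the GENCODE M21 gene is shown. Each run gives the 250 bases before the start, 5′ to 3′ on the gene's strand, at chrX:73483351-73483600 (plus strand) for Bgn, chr1:134037004-134037253 (plus strand) for Fmod and chr3:54360857-54361106 (plus strand) for Postn. Capitals mark matches, on either strand, to any of 5 motifs. They are the core of the box named after its letters, TATAAA, the site of AP-1 factors, TGANTCA, the site of SMAD factors, CAGAC, the site of TEAD factors, CATTCC, and the site of Sp1 family factors, CCGCCC.
Bgn: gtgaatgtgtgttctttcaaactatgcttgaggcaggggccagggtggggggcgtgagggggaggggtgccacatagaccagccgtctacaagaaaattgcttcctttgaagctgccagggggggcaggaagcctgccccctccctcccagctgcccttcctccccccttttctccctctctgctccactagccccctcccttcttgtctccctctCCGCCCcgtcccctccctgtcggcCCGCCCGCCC
Fmod: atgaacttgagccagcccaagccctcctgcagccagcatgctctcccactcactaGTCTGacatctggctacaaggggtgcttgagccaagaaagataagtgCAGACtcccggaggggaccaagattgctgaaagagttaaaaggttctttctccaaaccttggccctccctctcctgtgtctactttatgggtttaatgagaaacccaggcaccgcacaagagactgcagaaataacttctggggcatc
Postn: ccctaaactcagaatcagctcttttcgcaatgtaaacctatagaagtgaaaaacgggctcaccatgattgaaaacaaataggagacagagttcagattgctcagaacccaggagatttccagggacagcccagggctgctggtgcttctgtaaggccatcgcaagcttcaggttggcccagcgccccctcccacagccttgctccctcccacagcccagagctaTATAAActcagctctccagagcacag
Bgn held CCGCCC 3 times, 2 of them overlapping, which 32.7% of all 32851 windows hold at least once. Fmod held CAGAC 2 times, which 42.2% hold at least once, and Postn held TATAAA 1 time, 26 bases before the start, which 12.4% hold. The other Postn window in the table, at chr3:54359017-54359266, held CAGAC 1 time, the motif also found in Fmod, so whether these genes share a motif depends on the start taken. Over all 35 windows of the listed genes, 65.7% held CCGCCC and 42.9% held CAGAC, at a median GC content of 59.2% against 52.4% in all windows.

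Related matrix genes outside the list were read from the same fits. Of 28 tested collagen genes, 5 were higher in males with the litter block (Col1a1, Col1a2, Col3a1, Col5a1 and Col12a1) and 0 lower, against 0.152% and 0.0581% of all genes. Col1a1, the main fibrillar collagen gene, had 29.7, 37.1, 9.24 and 36.9 CPM in males and 17.9, 24.6, 5.99 and 17.2 CPM in females, a log2 difference of 0.78 (SE 0.09, adjusted p = 0.00196). Of 80 other tested matrix genes, among them latent TGF-beta binding proteins, syndecans, glypicans and further proteases, 0 passed by sex with the block in the edgeR test, while 14 had an unadjusted p-value under 0.05, which 11.6% of all genes had. The nearest was Dpt, the dermatopontin gene, at 0.90 (SE 0.16, adjusted p = 0.0563). By litter, 21 of 28 collagens and 46 of 80 other matrix genes passed, against 32.1% of all genes.

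Marker lists of other cells were set beside the sex difference. In the fit with the block, the only marker of these lists that passed was the endothelial gene Cldn5, which was lower in males, so the counts of signs that follow are of values and not of calls. Over all tested genes 6855 values were above 0 and 6916 below. The fibroblast markers summed to between 229 and 265 CPM in males and between 231 and 276 CPM in females, with a median log2 difference of 0.13 and 8 of 10 tested genes above 0, of which 1 had the male above the female in all 4 litters. Epicardial markers summed to between 15.2 and 23.9 CPM in males and between 15.1 and 23.8 CPM in females, with a median of 0.81 and 6 of 7 above 0. Endothelial markers summed to between 26.1 and 131 CPM in males and between 31.7 and 212 CPM in females, with a median of -0.64 and 14 of 14 below 0. In 3 of those 14 the male was below the female in all 4 litters, against 9.36% of all genes. Atrial markers summed to between 452 and 1430 CPM in males and between 286 and 1710 CPM in females, with a median of 0.84 and 10 of 10 above 0 (9 of 10 without the block). In 6 of those 10 the male was above the female in all 4 litters, against 10.9% of all genes. Erythroid markers summed to between 121 and 532 CPM in males and between 98.6 and 219 CPM in females, with a median of 0.38 and 6 of 6 above 0, but the male sum was the higher in 2 of 4 litters and 0 of the 6 genes had the male above in all 4. Cardiomyocyte markers summed to between 89500 and 109000 CPM in males and between 88700 and 117000 CPM in females, with the male sum higher in 1 of 4 litters. In 5 of 15 (Actn2, Myl2, Myl3, Nkx2-5 and Mybpc3) the male was below the female in all 4 litters. The epicardial and atrial medians were close in size to the differences of Bgn and Postn. The atrial gene Myl7 had 41.5, 152, 36 and 59.5 CPM in males of litters 1 to 4. Its female values were 24.6, 6.97, 18.3 and 42.4 CPM, so its pairs were furthest apart in litter 2. Tbx18 had 12.4, 13.7, 21.4 and 9.89 CPM in males and 12.3, 11.6, 21.1 and 11.8 CPM in females. The other tested epicardial genes had totals of 64 to 179 counts over the 8 libraries. The part of these cells in the sex difference was not tested.

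Some counts can be shared with other genes, by overlap in position or by like sequence elsewhere. No source says whether reads were counted by strand or how reads with several matches were counted. Of 100-base windows of the longest transcript, 43.5% of Loxl2 also occur in Gm16867, Gm21451, Gm45509 or Gm27177, 35.3% of Timp3 in Syn3, 19.7% of Fbn1 in Gm9913 and 8.4% of Adamts8 in Gm29724. Of the genes sharing windows with Loxl2, only Gm27177 overlaps it by position, at 5.6% of its exon bases. Syn3 and Gm9913 lie on the opposite strand and had 7 to 19 and 0 to 2 counts per library. For Bgn, Dcn, Fmod, Mfap4 and Postn the share was 0%. By position, however, Mapk7 on the opposite strand overlaps 4.6% of the exon bases of Mfap4 and had 156 to 227 counts per library, above the 5 to 73 counts of Mfap4, and its part in the Mfap4 counts was not tested. Mus81 likewise overlaps 4.6% of the exon bases of Efemp2 from the opposite strand and had 389 to 902 counts, against 62 to 111 for Efemp2. Rtraf overlaps 8.4% of the exon bases of Nid2 from the opposite strand, and 7.1% of Nid2 windows occur in it. No counts are listed under the name Rtraf, so its part in the Nid2 counts was not tested.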

How the data were processed

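RNA was measured in 8 libraries of purified mouse cardiomyocytes, 4 male and 4 female, paired by litter. Per the labels' protocols, a stranded total RNA kit and single-end reads were used, while the labels also give the molecule as polyA RNA, so the RNA selection is not settled here. The authors deposited raw counts per gene symbol. The submitters' processing notes name STAR 2.7.3a and mm10, while the counting program, annotation and strand setting are not given in the sources used here.

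Genes were filtered with filterByExpr on sex (minimum count 10), libraries scaled with TMM, and differences tested with edgeR 4.0.16 in R 4.3.3 by quasi-likelihood F tests, adjusted by Benjamini-Hochberg over 13771 genes at a threshold of 0.05. The sex fit had no litter term, and a litter block was an alternative. Litter was tested with sex in the model. Standard errors were obtained from each log2 fold change and its F statistic. DESeq2 1.42.0, other scalings, other filters and fits without single libraries or litters were alternatives. The code was tested on simulated counts.

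All listed genes could be named. Every library's value is given for genes called by sex, for the smallest p-values and largest ranges by litter, and for the highest levels. Members, lists and tests were chosen with earlier results of these data known.

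The labels make the litter the pair. After removal of sex means, the male and female of a litter correlated across genes at 0.367 to 0.696, and pairs from different litters at -0.482 to 0.27. Comparing counts of libraries within a sex gave chi-square values of 10.3 to 49.2 per degree of freedom, so no library repeated another. Exon lengths came from GENCODE M21 on GRCm38, the build named mm10.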

Additional observations from a re-analysis of the deposited data

Results flagged for a closer look

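For each tested gene, the extreme male was set against the other males and the extreme female against the other females. Of these 84 groups, 4 held a library well away from the rest, and about 4.2 would by chance. Vcan was low in the male of litter 1, at 77 CPM against 104 to 108 CPM in the other males. Fmod was high in the female of litter 4, at 0.882 CPM against 0.206 to 0.225 CPM in the other females, which is 21 counts against 3 to 5. Timp1 was low in the male of litter 3, at 5.99 CPM against 9.51 to 9.72 CPM. Timp3 was high in the female of litter 3, at 234 CPM against 82.4 to 97.3 CPM.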

How the results depend on the processing

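By sex, the count of 0 became 7 with the litter block and 7 with DESeq2 and the block, and stayed at 0 in the 8 fits without 1 library. The median of the 42 genes ran from 0.019 to 0.469 in those fits, against 0.15 to 0.296 with the block and without 1 litter. Within the block, 14 genes passed with a filter of at least 1 count, as calls over all genes went from 29 to 350, and 5 with a mean of at least 50 counts (21 over all genes), which leaves Mfap4 and Fmod untested. Without 1 litter, 3 to 10 passed. The block with either other scaling kept all 7.

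By litter, 38 genes became 25 without litter 3, and 33 to 37 without 1 library, where the share of all genes was 21.4 to 29.6% instead of 32.1%. Without 1 library, counts in litter 1 ran from 0 to 4 higher and 0 to 6 lower, in litter 2 from 10 to 20 and 0 to 1, in litter 3 from 1 to 3 and 21 to 30, and in litter 4 from 6 to 14 and 1 to 3. With at least 1 count, 6 genes passed as higher and 8 as lower in litter 1, and 5 as lower in litter 4, against 5.52%, 4.05% and 4.83% of all genes under that filter. In the fits that drop a library, the lone library left in its litter is assumed to vary like the rest. The shares of all genes called in each litter and direction also changed across those fits. They were lowest where the dropped library came from the litter under test, so the counts without a library have no fixed share to be set against. The cause of these shifts was not tested.

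Counts limit Timp4, Fmod, Mfap5, Fbln5, Mfap4, Lox and Tnc most, with totals of 23 to 271 over the 8 libraries. In the sex fit without the block, p-values measure the spread between hearts of the same sex, with 6 residual degrees of freedom. In the block and litter fits they measure only what is left once litter and sex are removed, with 3 residual degrees of freedom. Litter cannot be told apart from the day of preparation, which no label gives.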

Other observations

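Values of single matrix genes outside the list that were higher in litter 3 are given here, chosen after their values were seen. Gpc3, the glypican-3 gene, had 40.1 and 39.6 CPM in the male and female of litter 3, 27.8 and 28.7 CPM in litter 4 and 17.0 to 17.9 CPM in litters 1 and 2 (edgeR litter test, adjusted p = 7.83e-06). Adamts6, a protease gene, reached 102 and 98.7 CPM in litter 3, above the other 6 libraries at 41.8 to 60.4 CPM (adjusted p = 7.37e-05). Of the 80 other matrix genes, 11 were higher and 31 lower in litter 3, and of the 28 collagens 4 were higher (Col4a3, Col4a4, Col4a6 and Col6a2) and 16 lower, where 13.6% of all genes were higher and 14.8% lower, so the higher shares (13.8% and 14.3%) are near that of all genes.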
